A study of Mus musculus with 3 samples.

Results

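The transcripts of 52 mouse genes for splicing proteins were examined in LPS-stimulated RAW 264.7 cells, a transformed macrophage cell line. The genes were taken by their symbols alone, as every gene probe of the array whose symbol names an hnRNP protein (Hnrnp), an SR protein (Srsf), a subunit of SF3A or SF3B (Sf3a, Sf3b) or a protein of the small nuclear ribonucleoprotein particles (Snrp). They were read by 123 of 56605 gene probes and are 52 of 26840 named genes on the array. By role they fell into 20 hnRNP proteins with 51 probes, 11 SR proteins with 26, 9 SF3A and SF3B subunits with 22, 8 Sm core proteins with 16, and 4 proteins specific to the U1 and U2 particles with 8.

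All cells received LPS, the bacterial ligand of TLR4, at 50 ng/mL, so no group was unstimulated (cells without LPS are not analysed here). The control group was given LPS only. In the CRL1505 + LPS group the cells were first kept for 24 h with Lacticaseibacillus rhamnosus CRL1505, and in the CRL1506 + LPS group with Lactiplantibacillus plantarum CRL1506, each at 50000000 bacteria per mL. The time of LPS exposure was given as 12 h in the design and as 3 h in the sample descriptions, and this was not resolved. There was 1 array for each of the 3 conditions, so that no value below has a replicate check and none has a p-value. A gene was called changed at 2-fold or more, which is the fold cutoff of the study's methods.

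Splicing removes introns from new transcripts. Sm proteins form a ring on the small nuclear RNAs, the U1 particle binds the start of the intron, and the U2 particle, with SF3A and SF3B, binds the branch point. SR proteins bind exons and favour their inclusion, whereas hnRNP proteins coat new transcripts and often oppose inclusion. Transcripts of SR and hnRNP genes are themselves alternatively spliced, including forms that carry an early stop codon, and this is one way in which cells set the amounts of these proteins.

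Levels below are log2 intensities set against the 75th percentile of gene spots within an array, and they are compared between arrays for the same probe only. A gene was read by its probe of highest mean level unless another is named. Between 48.5% and 55.3% of spots were well above background, lowest on the CRL1505 + LPS array, and no spot was saturated. The intensity at the 75th percentile was 517.0 on that array and 743.1 and 697.9 on the LPS and CRL1506 + LPS arrays. The CRL1505 + LPS array was also hybridised on a different slide, scanned separately, while the other arrays shared a slide, so that strain and slide cannot be told apart for CRL1505. The 10 macrophage markers measured, among them Lyz2, Cd68 and Cd14, were well above background on every array. Among them Csf1r was at 7.34, 5.87 and 6.47 and Adgre1 at 2.61, 4.88 and 3.62 in LPS, CRL1505 + LPS and CRL1506 + LPS. Of the markers reported here for T cells, B cells, fibroblasts, epithelium and neurons, 5 passed background on every array and 6 on some, while Cd79a, Pdgfra, Krt8 and Krt18 were among those that passed on none. Ms4a1, Cd3e and Snap25 were among the 5. Several of the others moved, with log2 ratios to LPS of at least 3.19 for Rbfox3 and 1.81 for Col1a2 with CRL1505, of at least 1.85 for Col1a1 with CRL1506, and for Epcam of -1.93 or lower with CRL1505 and -1.39 with CRL1506. Their part in the results below was not tested.

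The probes of the splicing genes came in different kinds. Of the 123 probes, 90 listed a RefSeq mRNA and covered all 52 genes, 23 listed Ensembl transcripts and no RefSeq entry and covered 17 genes, and 10 listed other records. The probes below are shown because probes of the same gene gave different answers, as described further on. Coordinates are of the mm9 build, as in the array files, and for a probe across a splice junction they give its outer ends. The Srsf5 probe of transcript ENSMUST00000152662 (chr12:82047730-82047789, + strand) lay inside the interval that the RefSeq mRNA probe at base 443 of the transcript skipped (chr12:82047706-82048355, + strand) and shared no run of 10 bases with it. The Srsf11 probe of ENSMUST00000133090 (chr3:157687750-157687809, - strand) lay between the RefSeq mRNA probes at bases 355 (chr3:157689729-157689788, - strand) and 806 (chr3:157680826-157682305, - strand). The Sf3b1 probe of ENSMUST00000185429 (chr1:55045802-55045861, - strand) is set beside the RefSeq mRNA probe at base 563 (chr1:55069101-55071370, - strand).
Srsf5 RefSeq mRNA: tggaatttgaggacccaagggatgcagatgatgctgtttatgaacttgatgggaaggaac
Srsf5 Ensembl only: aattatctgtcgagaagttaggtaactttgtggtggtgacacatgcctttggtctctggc
Srsf11 RefSeq mRNA: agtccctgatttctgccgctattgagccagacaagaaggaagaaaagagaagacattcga
Srsf11 Ensembl only: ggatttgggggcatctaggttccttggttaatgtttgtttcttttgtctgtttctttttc
Sf3b1 RefSeq mRNA: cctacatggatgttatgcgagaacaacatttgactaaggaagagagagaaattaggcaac
Sf3b1 Ensembl only: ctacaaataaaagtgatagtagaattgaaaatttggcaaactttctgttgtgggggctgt

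At the level of genes, the splicing factors moved little. Of the 52 genes, 51 could be compared, and Srsf12 did not rise above background anywhere. None of the 51 was 2-fold higher or lower in CRL1505 + LPS than in LPS, where 9.93% of 15603 genes were higher and 8.41% were lower. None was found 2-fold higher or lower in CRL1506 + LPS than in LPS, where 5.67% of 16279 genes were higher and 3.53% were lower. For Snrpn that ratio is a bound, at -0.84 or lower on the log2 scale, so whether it fell 2-fold is not known. Among 1365 genes of similar level, 7.55% were higher and 2.56% lower with CRL1505, and 1.54% and 0.806% with CRL1506. Between the strains, 3 of the 51 were at least 2-fold higher in CRL1505 + LPS and none was lower, against 9.02% and 7.47% of 15780 genes, and 7.84% and 1.32% of those of similar level. These 3 were Srsf7, Hnrnpc and Snrpn. The count rested on the scaling, since it was 14 after a shift by the array median and 0 with spike-in scaling, normexp background correction or the deposited table. The log2 ratio between the strains ranged over these and other ways of processing from 0.73 to 1.61 for Srsf7 and from 0.619 to 1.4997 for Hnrnpc.

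The median log2 ratio of the 51 genes was 0.15 with CRL1505 and -0.16 with CRL1506, against 0.01 and -0.06 for all genes. For genes of similar level the medians were 0.13 and -0.08, so that the splicing genes lay close to these with CRL1505. Of the 51, 30 were above LPS with CRL1505 and 41 were below it with CRL1506. Among all genes, 7904 of 15603 were above with CRL1505 and 9323 of 16279 were below with CRL1506. Among genes of similar level, these were 827 of 1365 and 877 of 1365. The 0.14 by which the splicing genes exceeded all genes with CRL1505 lay between -0.04 and 0.15 over other ways of processing and so had no settled direction. The ratios to LPS with either strain share the LPS array and are given side by side without a correlation. The SD between RefSeq mRNA probes of the same gene had a median of 0.16 over 27 splicing genes with CRL1505 and 0.12 with CRL1506. It holds no variation between cultures or arrays, and it takes in differences by position along the transcript. The Snrpg probe, spotted 10 times, had an SD of 0.03 to 0.04 within an array.

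**Figure D1:**
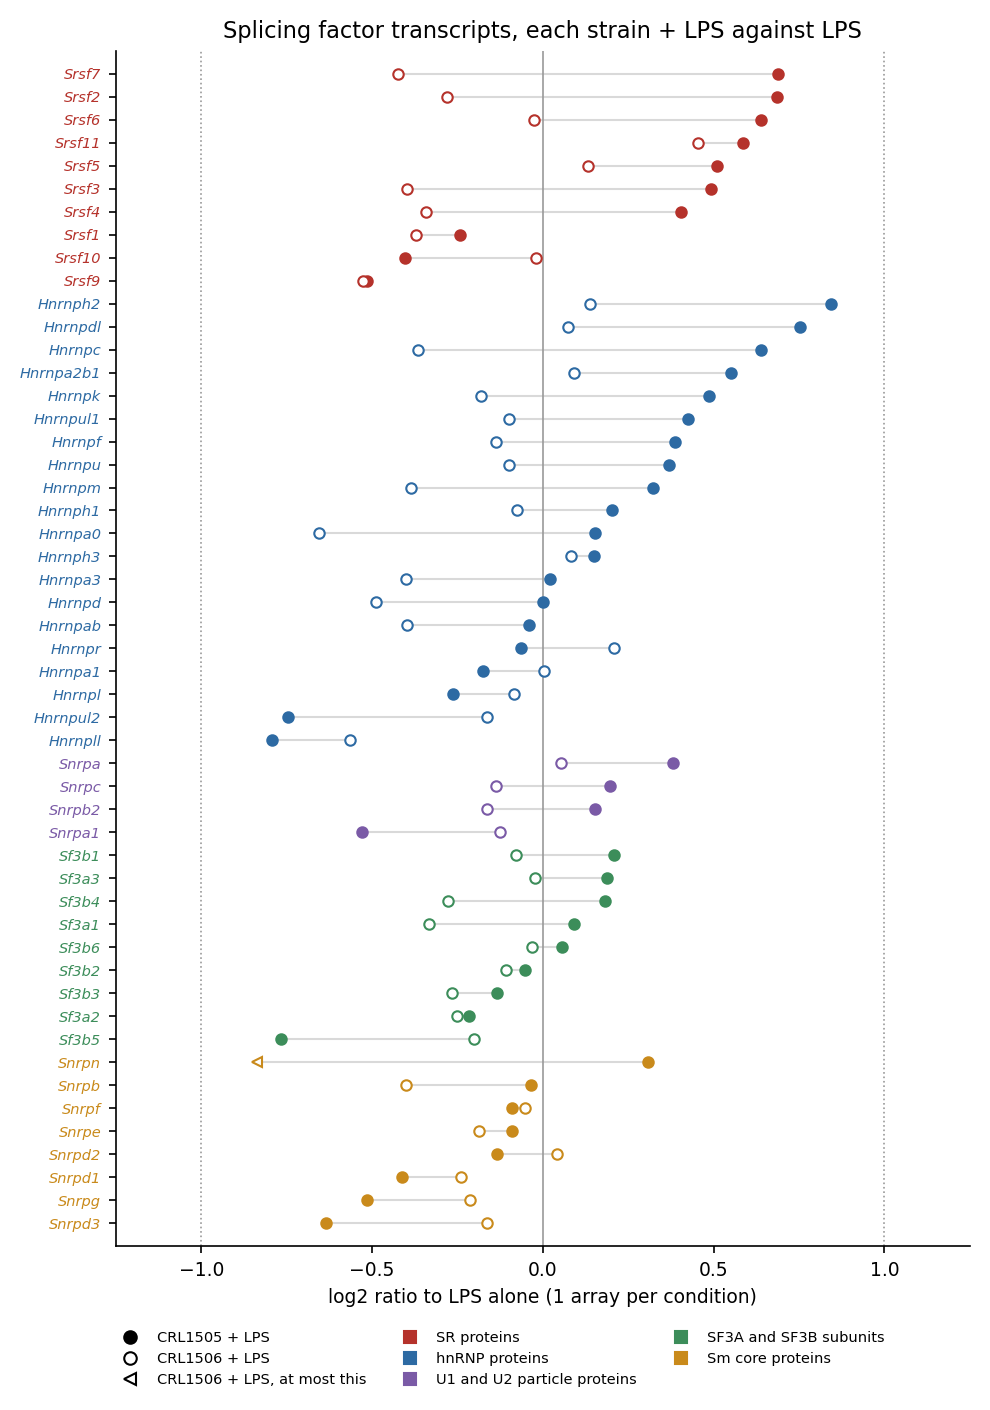
Log2 ratio of each of the 51 splicing genes to LPS alone (x axis), by gene (y axis) and coloured by role, with filled circles for CRL1505 + LPS and open circles for CRL1506 + LPS (1 array each). Dotted lines mark 2-fold. No filled or open symbol lies beyond 2-fold, and the triangle of Snrpn marks a ratio that is at most the value drawn.

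By the median, SR genes lay above LPS with CRL1505 and below it with CRL1506. Between the strains their median log2 ratio was 0.52, near the 0.47 of hnRNP genes, beside 0.19 for genes of similar level. With the mean over all probes of a gene it was 0.0476, against 0.20 for hnRNP genes. With CRL1505, 7 of the 10 SR genes compared were above LPS, beside 827 of 1365 genes of similar level. The 7 were above by log2 ratios of 0.40 to 0.69, and the median of the 10 was 0.50. With CRL1506, 8 of the 10 were below LPS, beside 877 of 1365 genes of similar level, and the median was -0.31. The counts of SR genes above or below LPS are not read as a trait of these genes. Less the median of all genes, the SR median was 0.49 with CRL1505 (0.29 to 0.50 over other ways of processing) and -0.25 with CRL1506 (-0.36 to -0.16), whereas the unadjusted median with CRL1505 became -0.01 when arrays were scaled to spike-in probes. Srsf7, which carries a zinc knuckle and takes part in export of mRNA, had a level of 5.08 in LPS, 5.77 in CRL1505 + LPS and 4.66 in CRL1506 + LPS. It was 2.16-fold higher in CRL1505 + LPS than in CRL1506 + LPS. Srsf2, a nuclear SR protein that binds exonic enhancers, had levels of 4.53, 5.22 and 4.25 in the same order, a ratio of 1.95-fold between the strains. Over other ways of processing, its log2 ratio between the strains lay between -0.17 and 1.46. Its Ensembl-only probe was 0.93 above LPS with CRL1506 on the log2 scale, where the probe in use was at -0.28. For Srsf3, the smallest SR protein, the levels were 4.57, 5.06 and 4.17. By the probes in use, the CRL1505 + LPS array was the highest and the CRL1506 + LPS array the lowest of the 3 in these 3 genes and in Srsf4 (2.09, 2.49 and 1.74).

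Other SR genes followed different orders. Srsf6 had levels of 5.56 in LPS, 6.20 in CRL1505 + LPS and 5.54 in CRL1506 + LPS, so that CRL1506 + LPS stood beside LPS. Srsf5 had levels of 3.65, 4.16 and 3.78. Srsf11 was above LPS with both strains, at 3.52, 4.10 and 3.97. Srsf9 was below LPS with both strains by nearly the same amount, with levels of 4.73, 4.22 and 4.21 and log2 ratios of -0.51 and -0.53. Srsf10, a splicing repressor when dephosphorylated, was at 2.72, 2.32 and 2.70, and Srsf1, the founding member of the family, had log2 ratios of -0.24 with CRL1505 and -0.37 with CRL1506.

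hnRNP proteins were spread widely. With CRL1505, 14 of 20 were above LPS when each was read by 1 probe, or 11 of 15 without 5 genes whose probes differed in sign along the transcript (Hnrnpf, Hnrnpk, Hnrnpr, Hnrnpu and Hnrnpul2). The median of the 20 was 0.18, which became -0.33 with spike-in scaling and -0.05 with the probe nearest the 5′ end. With CRL1506, 14 of 20 were below LPS and the median was -0.12. The 14 of 20 in either comparison stand beside 827 (CRL1505, above) and 877 (CRL1506, below) of 1365 genes of similar level. They are therefore not read as a trait of hnRNP genes. Hnrnpc, whose product packages new transcripts and competes with U2AF for uridine tracts, had levels of 4.78 in LPS, 5.42 in CRL1505 + LPS and 4.41 in CRL1506 + LPS, and was 2.01-fold higher with CRL1505 than with CRL1506. All 3 of its RefSeq mRNA probes lay above LPS with CRL1505, at log2 ratios of 0.50 to 0.64, and below LPS with CRL1506. Between the strains only the probe in use passed 2-fold, since the others gave 0.59 and 0.87.

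Hnrnph2, which binds guanine-rich tracts, had the highest ratio of the splicing genes with CRL1505, with levels of 3.33 in LPS, 4.17 in CRL1505 + LPS and 3.47 in CRL1506 + LPS, or 1.79-fold over LPS. Its other probe gave a log2 ratio of 0.68. Hnrnpdl followed with a log2 ratio of 0.75 with CRL1505 and 0.07 with CRL1506. Hnrnpa2b1, a carrier of RNA to the cytoplasm, was at 5.20, 5.75 and 5.29. Hnrnpu, a scaffold-attachment factor, was at 4.27, 4.64 and 4.17, and Hnrnpa3 at 6.76, 6.78 and 6.36. The hnRNP genes not named elsewhere here lay between Hnrnpl (-0.26) and Hnrnpk (0.49) with CRL1505, and between Hnrnpd (-0.49) and Hnrnpa1 (0.002) with CRL1506.

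At the low end, Hnrnpll, known for directing CD45 exon choice in lymphocytes, was below LPS with both strains. Its levels were 3.22 in LPS, 2.43 in CRL1505 + LPS and 2.66 in CRL1506 + LPS, which is 1.73-fold and 1.48-fold below LPS. Hnrnpa0, a substrate of MK2 that binds cytokine mRNAs, was at 3.95, 4.10 and 3.29. It had the lowest log2 ratio of the hnRNP genes with CRL1506, at -0.65. Hnrnpr had levels of 3.03, 2.97 and 3.24, and Hnrnpul2 of 0.52, -0.22 and 0.36, but the probes of both genes disagreed, as described below.

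SF3A and SF3B subunits, which hold the U2 particle on the branch point, mostly lay close to LPS by the probes in use. With CRL1506, all 9 had ratios below 0, from -0.33 to -0.02, with a median of -0.20, beside 877 of 1365 genes of similar level below 0. The sign of each gene rested on the processing. Of 14 other ways, Sf3a3 was above 0 in 6, Sf3b1 in 5 and Sf3b3 in 1. The median less that of all genes lay between -0.28 and -0.0044 over these. With CRL1505, 5 were above and 4 below, with a median of 0.06 that had no settled sign (0.35 after a shift by the array median, -0.45 with spike-in scaling). Sf3b5, the smallest SF3B subunit, stood apart with levels of 4.81 in LPS, 4.04 in CRL1505 + LPS and 4.61 in CRL1506 + LPS, which is 1.70-fold below LPS with CRL1505. The large scaffold subunit Sf3b1 was at 3.72, 3.93 and 3.64. Its RefSeq mRNA probe at base 5922 gave log2 ratios of 0.89 with CRL1505 and -0.35 with CRL1506. Between the strains that probe gave 1.24, which is past 2-fold. Sf3a1 was at 3.73, 3.82 and 3.40 and Sf3a3 at 4.96, 5.15 and 4.93. Sf3b3 was at 4.80, 4.66 and 4.53, and Sf3b4 at 4.56, 4.74 and 4.28. Sf3a2, Sf3b2 and Sf3b6 had log2 ratios of -0.22, -0.05 and 0.06 with CRL1505. The Sf3a2 probe at base 401 gave -0.96 and the Sf3b2 probe at base 898 gave -0.40 there.

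Sm core proteins lay on the other side from the SR proteins with CRL1505. There 7 of 8 were below LPS, beside 538 of 1365 genes of similar level. The median was -0.11, which became 0.18 after a shift by the array median but was -0.12 less all genes, and -0.27 to -0.12 over other ways of processing. With CRL1506, 7 of 8 were likewise below LPS, beside 877 of 1365 genes of similar level, and the median was -0.20. Snrpd3 had levels of 4.79 in LPS, 4.15 in CRL1505 + LPS and 4.63 in CRL1506 + LPS, or 1.55-fold below LPS with CRL1505. Snrpg and Snrpd1 had log2 ratios of -0.52 and -0.41 with CRL1505 and of -0.21 and -0.24 with CRL1506. Snrpb was at 6.42, 6.39 and 6.02, and Snrpd2 at 5.71, 5.58 and 5.76. Snrpe and Snrpf had log2 ratios of -0.09 each with CRL1505. Snrpn, the Sm protein of neurons, is counted here by 1 dim probe of another record, with levels of -3.56, -3.25 and -6.64. That probe was not well above background on the CRL1506 + LPS array, which makes it at least 2.21-fold higher with CRL1505 than with CRL1506. Its spot was itself uneven in signal on the LPS and CRL1505 + LPS arrays. The other 3 Snrpn probes, of RefSeq mRNAs, did not pass background, so no level of those mRNAs was established.

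Among the proteins of the U1 and U2 particles, Snrpa1 and Snrpb2, partners in the U2 particle, differed with CRL1505. Snrpa1 had levels of 5.94 in LPS, 5.41 in CRL1505 + LPS and 5.81 in CRL1506 + LPS, and its second RefSeq mRNA probe gave a log2 ratio of -0.68 with CRL1505. Snrpb2 was at 4.94, 5.09 and 4.77. The U1 proteins Snrpa and Snrpc were at 3.95, 4.33 and 4.002 and at 5.29, 5.49 and 5.16.

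The difference between the median of the SR genes and that of the Sm genes needs no scaling between arrays, since any shift of an array moves both alike. It was 0.61 with CRL1505 and -0.11 with CRL1506. Over 14 other ways of processing it lay between 0.45 and 0.63 with CRL1505. It was 0.62 when each gene was read by the RefSeq mRNA probe nearest its 5′ end. The median shift, the percentile over detected probes and the spike-in scaling could not move this difference, since they only shift whole arrays. With CRL1506 it remained between -0.17 and -0.07. This contrast was picked after the values were seen, and no test of it is possible with these arrays.

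**Figure D2:**
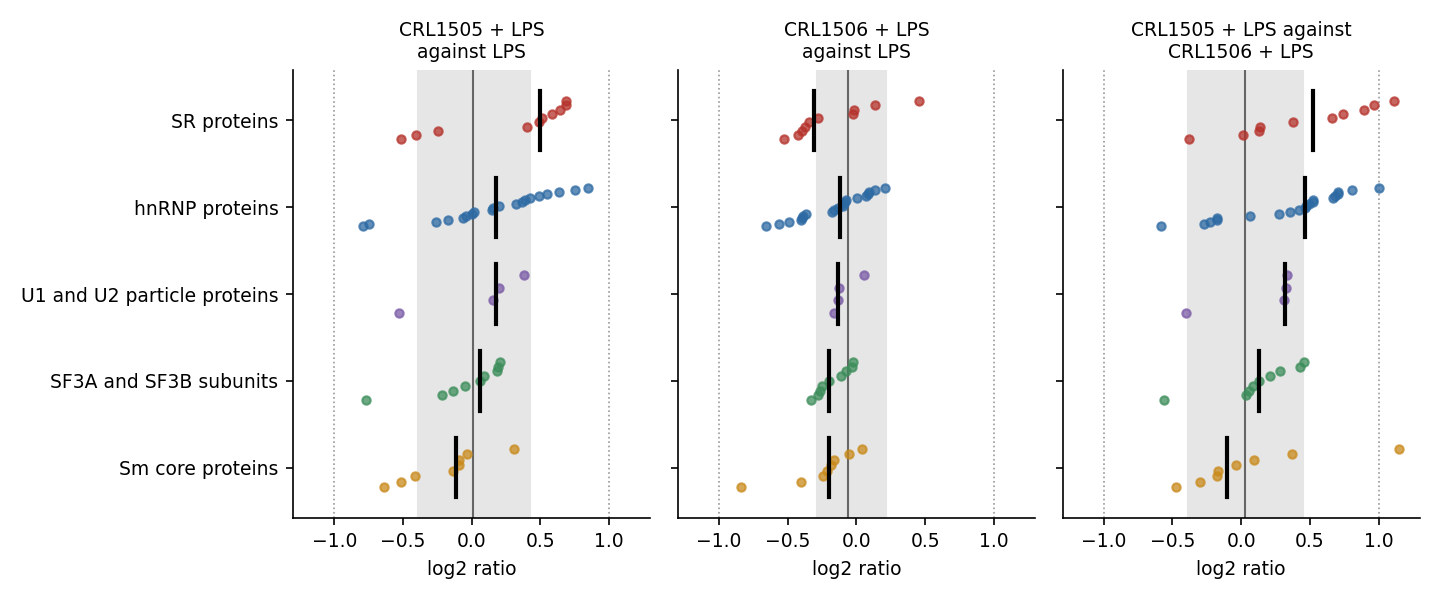
Log2 ratios (x axis) of the splicing genes by role (y axis) for each comparison, 1 point per gene, with black bars for the median of each role. The grey band spans the quartiles of all genes compared, the grey line their median, and dotted lines 2-fold. SR genes have medians of 0.50 with CRL1505 and -0.31 with CRL1506, and Sm genes of -0.11 and -0.20.

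**Figure D3:**
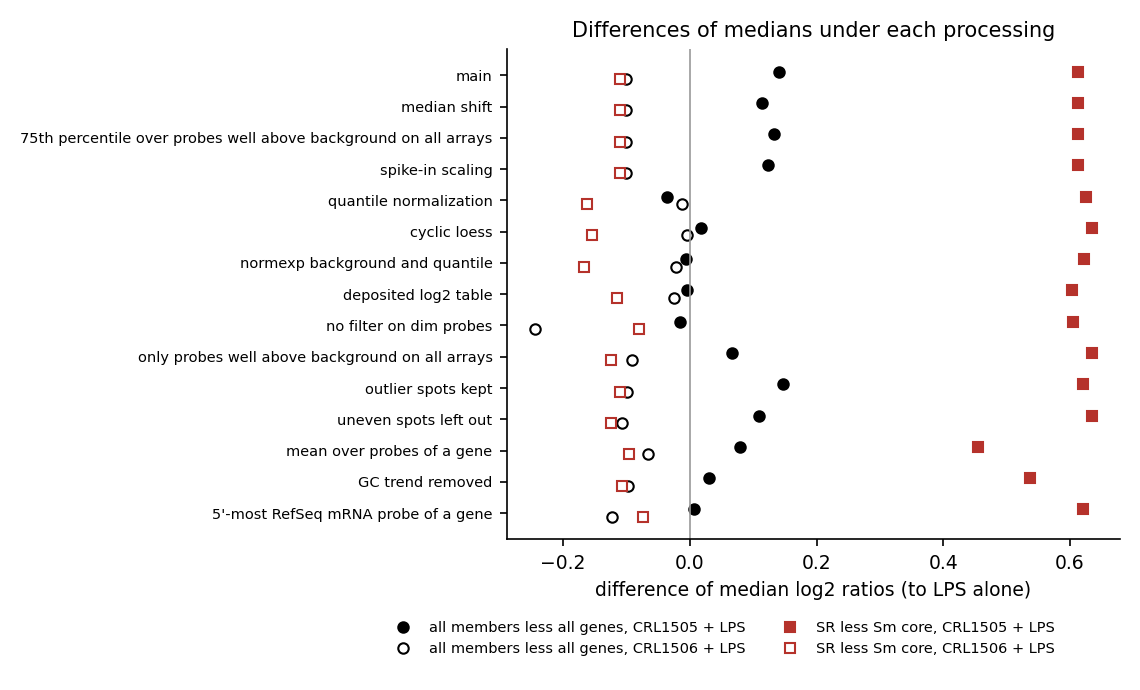
Difference of median log2 ratios to LPS (x axis) under each way of processing (y axis), with filled symbols for CRL1505 + LPS and open symbols for CRL1506 + LPS. Squares give SR less Sm genes, which stay between 0.45 and 0.63 with CRL1505, and circles give all splicing genes less all genes, which cross 0 with CRL1505.

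Probes that list Ensembl transcripts only gave a different picture from the mRNA probes, and this difference was seen with CRL1506. Of the 23 such probes of splicing genes, 18 were well above background on both the LPS and the CRL1506 + LPS arrays. Their median log2 ratio was 0.93, 17 of 18 were above 0, and 7 were at least 2-fold higher. Among all measured probes of genes with a RefSeq mRNA probe, 30.3% of 2110 Ensembl-only probes were at least 2-fold higher with CRL1506, and 2.45% of 18264 RefSeq mRNA probes. The 85 RefSeq mRNA probes of splicing genes measured had a median of -0.14 with 1 of them, of Hnrnpr, at least 2-fold higher. None of the 85, and none of the 18, was 2-fold lower with CRL1506, against 1.71% of the 18264 RefSeq mRNA and 1.42% of the 2110 Ensembl-only probes.

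Each of the 18 Ensembl-only probes stood above the brightest RefSeq mRNA probe of its own gene. The difference had a median of 0.83 and ranged from 0.02 to 2.06 over 13 genes. In the deposited table and after normexp, 15 of the 18 stood above, with medians of 0.53 and 0.59. Srsf11 shows it within a gene. The ENSMUST00000133090 probe had levels of 0.77 in LPS, 0.38 in CRL1505 + LPS and 2.18 in CRL1506 + LPS, a log2 ratio of 1.41 with CRL1506 and of -0.40 with CRL1505. Its other Ensembl-only probe (ENSMUST00000089922) gave 1.24 and -0.47. The 4 RefSeq mRNA probes of Srsf11 gave 0.06 to 0.45 with CRL1506. Thus the CRL1506 + LPS array was the highest of the 3 for both Ensembl-only probes, and among the RefSeq mRNA probes for that at base 806 (3.36, 3.58 and 3.79) but not for the other 3.

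CRL1506 + LPS was also the highest array for the Ensembl-only probes of Sf3b1 and Srsf5. The Sf3b1 ENSMUST00000185429 probe was at -2.97 in LPS, -2.91 in CRL1505 + LPS and -1.52 in CRL1506 + LPS, a log2 ratio of 1.45 with CRL1506. The 3 RefSeq mRNA probes of Sf3b1 gave -0.35 to -0.06. The Srsf5 ENSMUST00000152662 probe was at 0.72, 0.68 and 1.64, while the RefSeq mRNA probe that spans it was at 3.16, 3.98 and 3.56. In Srsf5 the highest array was therefore CRL1506 + LPS for the probe inside the interval and CRL1505 + LPS for the probe across it.

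The largest differences were those of Hnrnpll, Sf3b3 and Hnrnpr. The Hnrnpll ENSMUST00000184726 probe was 1.49 above LPS with CRL1506, on the log2 scale, while its RefSeq mRNA probe was at -0.56. Sf3b3 gave 1.45 with the ENSMUST00000212515 probe and -0.27 with the RefSeq mRNA probe. Hnrnpr gave 1.86 with the ENSMUST00000148843 probe and 0.21 with the RefSeq mRNA probe in use, while its RefSeq mRNA probe at base 4694 gave 1.37. Not all Ensembl-only probes behaved so, since that of Hnrnph3 gave 0.10 and its RefSeq mRNA probe 0.08. A further probe, of Hnrnpu transcript ENSMUST00000159117, also lists a predicted RefSeq record and so was not in this class. It had levels of 2.08, 2.12 and 3.52, and the RefSeq mRNA probes of Hnrnpu gave -0.10 and 0.13 with CRL1506.

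**Figure D4:**
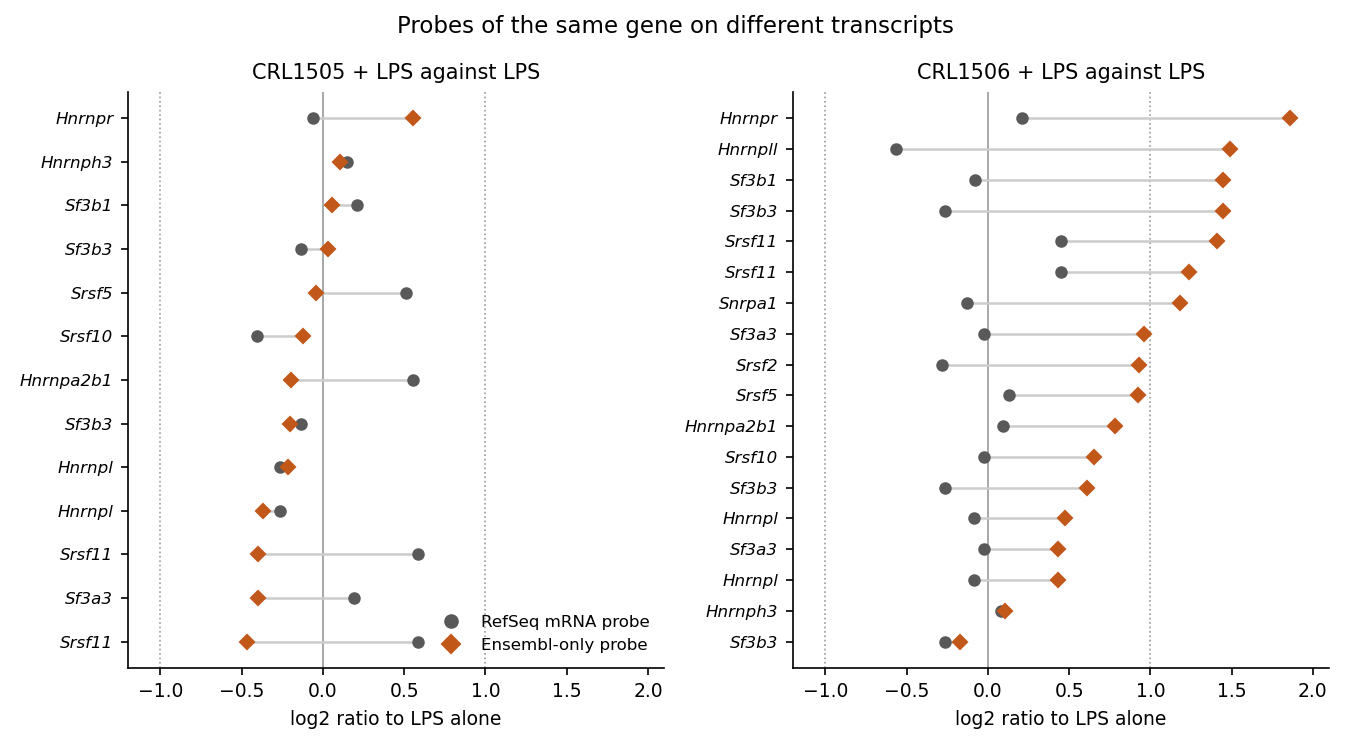
Log2 ratio to LPS alone (x axis) of each Ensembl-only probe (diamonds) and of the brightest RefSeq mRNA probe of the same gene (circles), for CRL1505 + LPS on the left and CRL1506 + LPS on the right. With CRL1506 the diamond is to the right of the circle in 18 of 18 pairs. With CRL1505 this holds in 4 of the 13 pairs that could be measured there.

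With CRL1505, 13 pairs could be measured, and the Ensembl-only probe was the higher in 4 of them, with a median difference of -0.11. Between the strains the 13 Ensembl-only probes had a median log2 ratio of -0.97. Of them, 5 were at least 2-fold lower in CRL1505 + LPS than in CRL1506 + LPS, against 29% of 1799 Ensembl-only probes of genes with a RefSeq mRNA probe. None of the 13 was 2-fold higher there (4.72% of the 1799). Of the 85 RefSeq mRNA probes of splicing genes, 3 were 2-fold higher between the strains and none was lower, against 6.48% and 5.31% of RefSeq mRNA probes. Against LPS, no RefSeq mRNA probe of a splicing gene changed 2-fold with CRL1505, where 6.8% of such probes were higher and 6.7% lower, nor did any of the 13 Ensembl-only probes, where 8.57% were higher and 4.08% lower. Of 6 probes of splicing genes on other records, 1, of Hnrnpr, was 2-fold higher with CRL1505 (log2 ratio 1.15). None of the 6 was lower, against 8.02% higher and 4.01% lower among such probes of other genes.

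The rise of Ensembl-only probes with CRL1506 was seen across the array and is not particular to splicing genes. In other genes, 1891 such pairs had a median difference of 0.61 and 77.4% were above 0. A difference of at least 1 was seen in 33.3% of the pairs of splicing genes and in 33.5% of the others. The Ensembl-only probes were mostly dim. The 10312 RefSeq mRNA probes of other genes between their lowest and highest level had a median of -0.05 with CRL1506. These were not matched to them in level within that range, and the part of low signal was not tested. All 18 Ensembl-only probes of splicing genes lay in 60 adjoining bases of the genome. In other genes, 1958 probes of this kind had a median of 0.51 with CRL1506, and 90 Ensembl-only probes across a splice junction had a median of 0.07. Probes placed like that of Srsf5, inside the interval skipped by a RefSeq mRNA probe of the same gene, were measured in 20 other pairs. The inner probe was the higher with CRL1506 in 20 of 20, by a median of 0.91, and with CRL1505 in 8 of 19. Which RNA these probes bound was not tested.

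The ratio with CRL1505 also went with the position of a probe along the mRNA. In 10 splicing genes, RefSeq mRNA probes lay 1000 or more bases apart on the same transcript. In all 10 the probe nearest the 3′ end had the higher ratio to LPS with CRL1505, by a median of 0.66. With CRL1506 it was the higher in 3 of 10, with a median of -0.06. In other genes, the 3′ probe was the higher in 69.7% of 1852 pairs with CRL1505, by a median of 0.24, and in 31.4% of 2110 pairs with CRL1506, with a median of -0.19. For probes under 500 bases apart the medians in other genes were 0.04 and 0.03.

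In 5 of the 10 genes, all of hnRNP proteins, the probes at either end differed in sign with CRL1505. Hnrnpul2 gave -0.75 with the probe at base 2681 and 0.64 with the probe at base 5458. Hnrnpu gave -0.48 at base 1544 and 0.37 at base 3316. Hnrnpf gave -0.31 at base 455 and 0.39 at base 2029. Hnrnpk gave -0.03 at base 242 and 0.49 at base 1447, and Hnrnpr -0.42 at base 452 and 0.58 at base 4694. The ratios of these 5 genes with CRL1505 given above are those of 1 probe each and have no settled direction. Hnrnpc had 0.59 and 0.64 at its ends. The part of probe position in the values by gene was not tested further, and slide and strain cannot be told apart here. When each gene was read at its probe nearest the 5′ end, the splicing genes exceeded all genes by 0.01 with CRL1505 in place of 0.14.

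**Figure D5:**
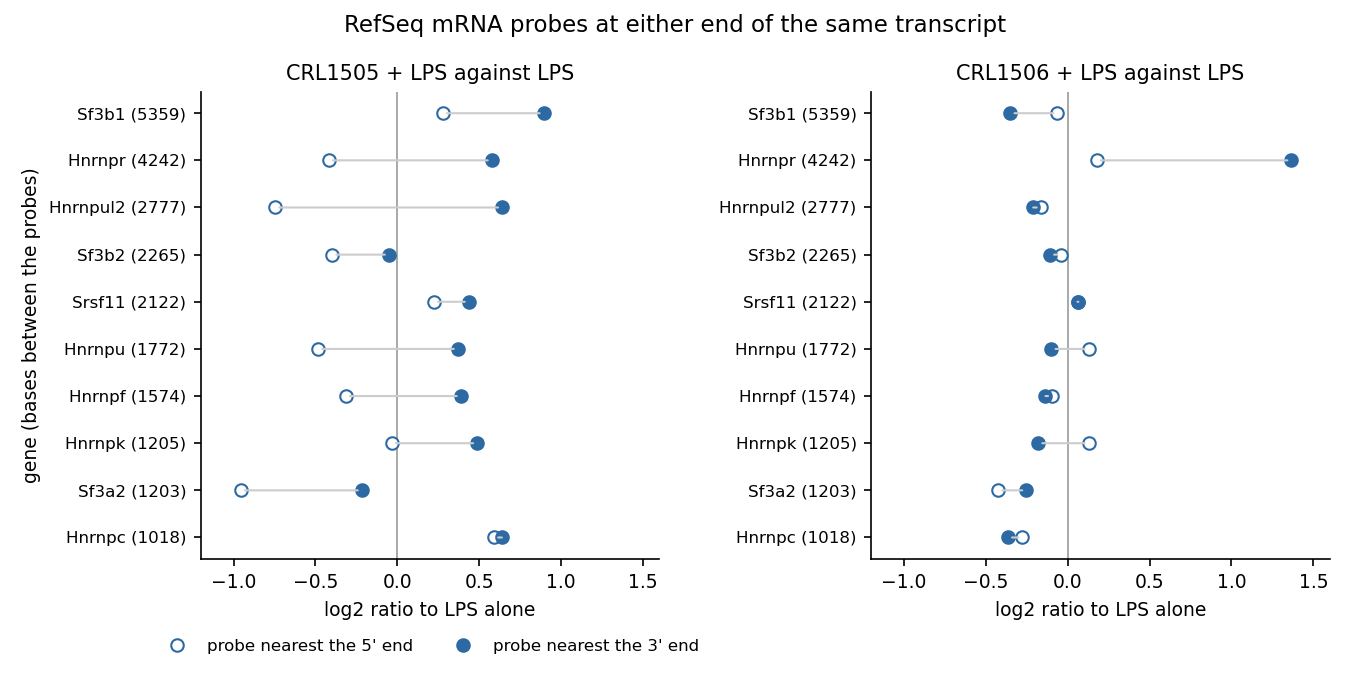
Log2 ratio to LPS alone (x axis) of the RefSeq mRNA probes nearest the 5′ end (open) and the 3′ end (filled) of the same transcript, for splicing genes with probes 1000 or more bases apart (y axis, with the distance in bases). With CRL1505 the filled circle is to the right in 10 of 10 genes, and with CRL1506 in 3 of 10.

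The rest of the splicing machinery was described by 4 lists of genes with other symbols. Of 52 further particle proteins, 1 was at least 2-fold higher with CRL1505, none was lower, and none changed with CRL1506. The gene was Prpf39, a U1 protein, with levels of -0.64 in LPS, 0.87 in CRL1505 + LPS and -0.07 in CRL1506 + LPS. Of 37 proteins of the catalytic spliceosome, Srrm2, a scaffold of nuclear speckles, was 2-fold higher with CRL1505 (4.42, 5.55 and 4.96), Prpf19, a ubiquitin ligase, was 2-fold lower (1.90, 0.89 and 1.63), and none changed with CRL1506. Of 27 other regulators, Tra2a, an SR-like enhancer of splicing, was 2-fold higher with CRL1505 (5.27, 6.38 and 5.28).

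In the same list Ptbp2, the neuronal form of the polypyrimidine tract protein, was 2-fold higher with CRL1506 (-2.30, -1.72 and -0.32). Between the strains, Tra2a and Pcbp2, a poly(C)-binding protein (5.78, 6.48 and 5.42), were 2-fold higher in CRL1505 + LPS, while Ptbp2 and the U5 helicase Ddx23 (-0.10, -0.68 and 0.43) were 2-fold lower. Of the kinases and assembly factors, none of 27 changed with CRL1505 or between the strains and none of 28 with CRL1506. The SR protein kinases Srpk1 and Clk1 had log2 ratios of 0.32 and 0.46 with CRL1505 and of -0.01 and 0.00 with CRL1506, and Srpk2 of -0.68 and 0.18. The low counts in these lists stand against the shares of all genes given above. By contrast, 13 of 16 proliferation genes were at least 2-fold lower with CRL1505, at a median of -1.35, and none was with CRL1506, at a median of -0.43. Their part in the values of the splicing genes was not tested.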

How the data were processed

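The authors deposited, for each of 3 one-colour arrays (SurePrint G3 Mouse GE), the output of Feature Extraction, version 12.0.3.1 in the file header, with 60-base probes placed on mm9. The deposited processed signal is an intensity that Feature Extraction, run by the authors, corrected for local background and spatial trend (per the file headers). The deposited series table holds log2 values of the same arrays and served as an alternative. Per the methods, RNA was treated with DNase, and GeneSpring and limma were used, with settings not given in the sources used here.

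Log2 intensities were scaled to each array's 75th percentile over gene spots. Outlier spots were left out and repeated spots averaged. Each gene was read by its probe of highest mean level. Probes well above background on neither array were left out, and those on 1 array gave a bound. Values came from Python 3.11.15, pandas 2.3.3 and NumPy 2.4.6, and alternative normalizations from limma 3.58.1 in R 4.3.3. The scripts were tested on simulated data. The number of arrays limits precision.

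Members and lists were chosen with earlier results of these data known. The SR less Sm contrast and the comparisons by kind and position of probe were picked after seeing the values. Named genes were those past 2-fold, the extremes and the brightest of each role, and those whose probes lay over 1 apart, with a few added after their values were seen (Srsf3, Srsf4, Srsf1, Hnrnpdl, Hnrnpf, Hnrnpk, Hnrnpl, Hnrnpd, Hnrnpa1, Hnrnpm, Sf3a2, Sf3b2, Sf3b6, Hnrnph3, Snrpd1, Snrpe, Snrpf, Snrpg, Srpk1, Srpk2 and Clk1). All 52 symbols matched RefSeq genes of GRCm38.p6. A marker gene is not reported here.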

Additional observations from a re-analysis of the deposited data

Results flagged for a closer look

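In 6 splicing genes, the array of either strain lay on opposite sides of LPS, relative to all genes, by more than the spread between probes of a gene. That spread is the median SD between RefSeq mRNA probes over all genes, 0.19 with CRL1505 and 0.15 with CRL1506. How many of all genes met this rule was not counted, so the 6 cannot be read as a trait of splicing genes. The log2 ratio of CRL1505 + LPS to CRL1506 + LPS was 1.11 for Srsf7, 1.004 for Hnrnpc, 0.97 for Srsf2, 0.89 for Srsf3, 0.75 for Srsf4 and 0.71 for Hnrnpm, of which 4 are SR genes. With 1 array per condition the difference between strains was not tested. For Srsf2, an Ensembl-only probe gave 0.93 with CRL1506, where the probe in use gave -0.28. Hnrnpm had log2 ratios of 0.32 with CRL1505 and -0.39 with CRL1506, and its RefSeq mRNA probe at base 75 gave 0.46 and 0.22, so that the opposite sign was not seen there.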

How the results depend on the processing

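Of 1254 values of named genes under alternatives, 953 moved by less than the spread between probes and 301 by more. This spread is the median SD between RefSeq mRNA probes over all genes, 0.19 with CRL1505, 0.15 with CRL1506 and 0.24 between strains. No paired analysis was possible because there was 1 array per condition. Scaling set how many splicing genes passed 2-fold. With CRL1505 (none as reported) there were 2 after a shift by the array median, 7, all lower, by spike-in probes, 1 without the filter on dim probes, 1 with outlier spots kept and 11 at 1.5-fold. With CRL1506 (none as reported) there was 1 after the median shift, quantile normalization or cyclic loess and without the dim filter, and 2 at 1.5-fold. Between strains (3 as reported) there were 14 after the median shift, 12 at 1.5-fold, 1 after quantile normalization or cyclic loess, and 0 with the percentile over detected probes, spike-ins, normexp, the deposited table or at 4-fold. The median shift and spike-ins put the median of all genes at 0.33 and -0.48 with CRL1505, 0.57 and -0.35 between strains. The splicing genes less all genes between strains (0.29) became 0.0303 after quantile normalization and 0.0486 after normexp. SR less Sm between strains (0.62) became 0.18 with the mean over probes. The Ensembl-only less RefSeq mRNA difference with CRL1506 (0.83) became 0.59 after normexp and 0.53 in the deposited table, where 15 of 18 pairs were above 0. With CRL1505 (-0.11) it became 0.14 after cyclic loess and 0.0862 in the deposited table. Between strains (-1.03) it became -0.75 after quantile normalization, -0.78 after cyclic loess, -0.62 after normexp, -0.65 in the deposited table and -1.34 without the dim filter. The 3′ less 5′ difference with CRL1505 (0.66) became 0.42 in the deposited table. The cause of these changes was not tested.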
